A study of Mus musculus with 2 samples.

Results

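Blood endothelial cells, the cells that line blood vessels, were examined in sections of mouse back skin measured with Xenium In Situ, a method that decodes single RNA molecules of a chosen gene panel at their place in the tissue. A cell was counted as a blood endothelial cell where its outline held at least 20 decoded gene transcripts of quality score 20 or above and where Vwf, Plvap, Tie1, Kdr and Sox17 together gave at least 4 transcripts and 5% of the total. The rule also required under 8% of transcripts from the epithelial genes Trim29, Dsc3, Serpinb5 and S100a14, at most 1 transcript of the lymphatic genes Mmrn1, Prox1 and Nts, and under 30% from the skeletal muscle genes Ttn, Pvalb, Actn3, Pygm and Des. It took 2118 of 62074 segmented cells, 1814 of 46142 in SspA+HDM skin and 304 of 15932 in mock skin.

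The SspA+HDM section came from C57BL/6 mouse back skin that had received both agents on its surface, and the mock section from the same strain with PBS on the surface; in both, the skin had been shaved and depilated and was examined at day 7. The labels give no sex, age or number of mice, no dose, and no expansion of the abbreviations SspA and HDM. Each treatment had 1 sample, cut at 5 µm from fixed, paraffin-embedded tissue, so no difference below has a replicate check and no test was run. Intervals are exact 95% intervals and cover counting error only. Levels are CPM, a gene's transcripts in the blood endothelial cells as parts per 1000000 of the sum over all 379 panel genes in the same cells, and a ratio of levels is SspA+HDM over mock.

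Each section held 2 strips of skin, which are given side by side and are not replicates. The SspA+HDM strips had nearly the same profile: their tissue depth in 38 steps of 0.2 mm followed one another with a correlation of 0.957, and their counts of blood endothelial cells with one of 0.85. In the 35 steps of the mock strips these correlations were 0.348 and 0.0857. Whether strips are neighbouring cuts of 1 specimen was not tested. In all, 8124205 gene transcripts reached quality 20 in the SspA+HDM section, with 97.6% inside outlines, and 2461475 in the mock section, with 94.5%. The median cell held 121 transcripts in SspA+HDM skin and 103 in mock skin, and the sections shared 0 cell identifiers.

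Blood endothelial cells form the inner lining of arteries, capillaries and veins and control the passage of fluid, solutes and white blood cells. In skin, vessels run as a deep plexus near the fat and a superficial plexus under the epidermis, with capillary loops around hair follicles. New vessels grow under the control of vascular endothelial growth factors, read by the receptor Kdr, and of the angiopoietins, read by Tek together with its relative Tie1. Vwf is stored in endothelial granules and tethers platelets, Plvap forms the diaphragms of small endothelial pores, and Sox17 is a transcription factor best known from arteries.

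Genes that the rule did not use were those of blood vessels. In SspA+HDM skin the highest levels relative to all other cells of the section belonged to Podxl, a sialomucin of the vessel surface (42.6-fold), Clec14a, an endothelial C-type lectin (38.3-fold), Ctla2a, an inhibitor of cysteine proteases (37.4-fold) and the urea transporter gene Slc14a1 (35.2-fold). Then came AU021092 (34.1-fold), Gpihbp1, which holds lipoprotein lipase on the capillary wall (28.9-fold), the water channel gene Aqp1 (26.8-fold) and Eng, a TGF-beta co-receptor (21.8-fold). Rsad2, Colec11, Angpt2 and Rgs5 closed the 12, at 21.4, 19.8, 19.4 and 19.4-fold. In mock skin the order was led by AU021092 (27.3-fold), Clec14a (25.8-fold), Podxl (22.7-fold), Rasd1 (21.2-fold) and Aqp1 (20.5-fold). The sections shared 9 of their 12 highest genes. Rasd1, Gng11 and Calcrl ranked in mock skin only, and Slc14a1, Colec11 and Angpt2 in SspA+HDM skin only; a gene needed 50 transcripts in the section to be ranked, which Slc14a1 and Colec11 did not have in mock skin, with 26 and 40. Without that minimum Colec11 (18-fold) and Higd1b (11.3-fold) would take the places of Gng11 and Calcrl in mock skin. These orders are descriptions, since cells chosen by vessel genes carry other vessel genes with them.

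Rgs5 and Higd1b, genes of pericytes that sit against the capillary wall, were also high in these outlines, and RNA of adjacent cells inside an outline cannot be told apart from the cell's own. Mural markers made up 6.59% of transcripts in SspA+HDM and 5.27% in mock blood endothelial cells, and fibroblast markers 7.53% and 7.81%. Adipocyte markers differed more, at 3.72% in SspA+HDM and 9.0% in mock, as did skeletal muscle markers, at 1.9% and 5.18%. Macrophage markers were at 0.631% and 0.347%, T cell markers at 0.177% and 0.0417%, granulocyte markers at 0.158% and 0.0243%, and epithelial markers at 0.747% and 0.51%. Lymphatic markers, which the rule limits, were at 0.0524% and 0.104%. Every marker in these lists had transcripts in both sections except Nts, Ctla4 and Mmp8, which were at 0 in mock cells. The part of these cells in the gene levels below was not tested.

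The endothelial part of the rule was met by 2025 SspA+HDM cells and 401 mock cells. Of the cells that met it and were then lost, the lymphatic limit removed most, 166 in SspA+HDM and 81 in mock skin. The epithelial limit removed 25 and 6 and the muscle limit 20 and 12, and some cells failed several. The 5% minimum itself left out more. Within the other limits, 496 SspA+HDM and 168 mock cells held at least 4 marker transcripts but under 5% of the total. Just inside the threshold, 146 SspA+HDM and 45 mock cells held exactly 4 marker transcripts. In these the endothelial genes outside the rule summed to 124089 CPM in SspA+HDM and 144454 CPM in mock. Just outside, 119 SspA+HDM and 51 mock cells held exactly 3, with sums of 110200 and 129000 CPM. These sums were thus of like size either side of the threshold. Clec14a alone was at 3897 CPM inside and 4200 CPM outside in SspA+HDM, and at 4025 and 2500 CPM in mock. In cells with at least 10 marker transcripts the sums were 188217 CPM in SspA+HDM and 147628 CPM in mock.

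Blood endothelial cells made up 4.1% (interval 3.91 to 4.29) of the SspA+HDM cells with at least 20 transcripts and 1.99% (1.77 to 2.22) of the mock cells. The strips gave 3.78% and 4.37% in SspA+HDM and 1.94% and 2.03% in mock skin, which did not overlap. The share was thus 2.06-fold higher in SspA+HDM. Its size depended on the rule, at 1.7-fold with 3 marker transcripts and 3% of the total and 3.48-fold with 6 and 10%. The share was uneven along the SspA+HDM strips: it was 3.11% and 4.24% to either side of the middle of strip 1 and 4.19% and 4.5% of strip 2, all above the highest such value of a mock strip (2.23%).

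Along the skin the difference was larger, but the SspA+HDM tissue was also deeper and held more cells of all classes together. There were 100.4 and 136 blood endothelial cells per mm of strip length in SspA+HDM, against 20.1 and 23.5 in mock skin, a ratio of 5.42. All segmented cells together were at 3004 per mm in SspA+HDM and 1143 per mm in mock skin. Counted in whole mm, the SspA+HDM strips ranged from 32 to 233 cells and the mock strips from 15 to 28. The median thickness of the tissue was 348 and 357 µm in the SspA+HDM strips and 214 and 221 µm in the mock strips. Per area of tissue the density was 289 and 380.4 blood endothelial cells per mm2 in SspA+HDM and 93.7 and 106 in mock skin. That of all segmented cells was 8527 per mm2 in SspA+HDM and 5245 per mm2 in mock skin.

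**Figure D1:**
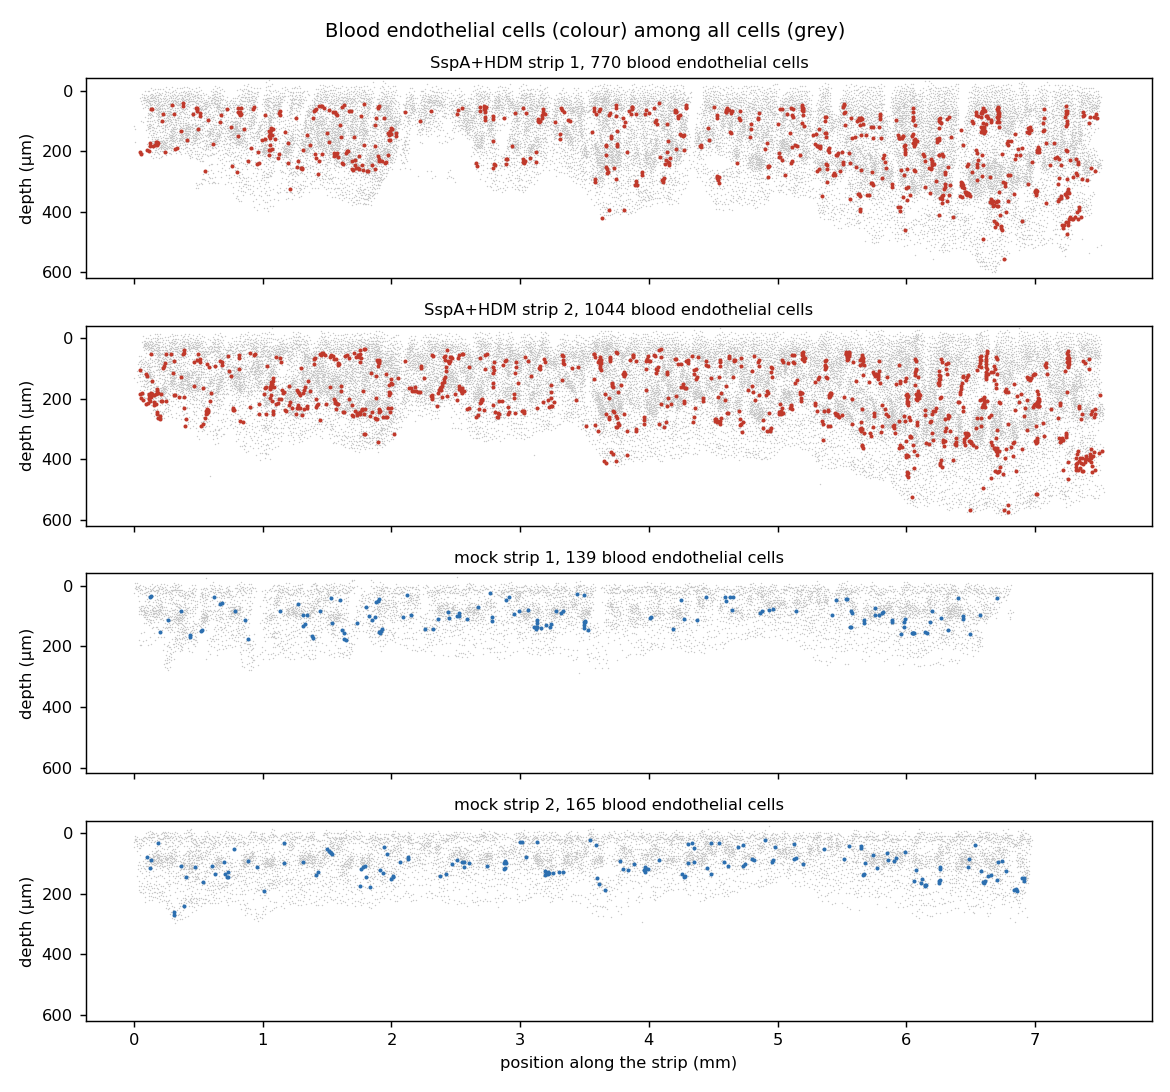
Position of blood endothelial cells (coloured points) among all segmented cells (grey) in each strip, with distance along the strip in mm across and depth below the skin surface in µm downwards. The 770 and 1044 cells of the SspA+HDM strips (upper panels) run through tissue with a median thickness of 348 and 357 µm. The 139 and 165 cells of the mock strips (lower panels) lie mostly above 200 µm, in tissue with a median thickness of 214 and 221 µm.

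The cells lay deeper and closer together in SspA+HDM skin, as the map of the strips shows. Their median depth below the surface was 185 µm (quartiles 95.5 and 257) in SspA+HDM and 109 µm (83.3 and 137) in mock skin, where the other cells had medians of 152 and 80.3 µm. Among all cells of the SspA+HDM section the share of blood endothelial cells was 3.25%, 3.82%, 5.13% and 5.06% in steps of 100 µm from the surface down, and in mock skin it was 1.34% and 3.7% in the upper steps. Only 3 mock cells lay below 200 µm. With cells linked where their centres were within 20 µm, 36.1% of SspA+HDM cells (33.8 to 38.3) and 10.9% of mock cells (7.59 to 14.9) belonged to groups of at least 5. The largest group held 27 cells in SspA+HDM and 6 in mock skin. Cells with no other within reach were 23.7% of SspA+HDM and 51% of mock cells. The part of overall cell density in this grouping was not tested.

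Neighbours differed as well. The nearest cell was another blood endothelial cell for 35.1% of the SspA+HDM and 21.7% of the mock cells, and a mural cell for 13.5% and 7.57%. Of all cells, blood endothelial cells were 3.93% in SspA+HDM and 1.91% in mock skin, and mural cells 2.92% and 3.96%. The part of these overall shares in the neighbours was not tested. The median distance to a mural cell was 17.2 µm in SspA+HDM and 29 µm in mock skin, and to a macrophage or monocyte 18.6 and 30.4 µm. Fat ran the other way. An adipocyte lay at a median of 78.5 µm in SspA+HDM and 19.1 µm in mock skin, and 44.8% of SspA+HDM cells had an adipocyte or skeletal muscle cell within 50 µm, against 82.2% of mock cells. Ratios are therefore also given below for cells near fat or muscle (813 in SspA+HDM, 250 in mock) and for cells away from both (1001 in SspA+HDM, 54 in mock), near first.

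The outlines held a median of 92 transcripts in SspA+HDM and 77.5 in mock blood endothelial cells. Their area had a median of 93.5 µm2 in SspA+HDM and 127 µm2 in mock skin, and that of the other cells 90.2 and 135 µm2. Outlines were thus smaller in SspA+HDM skin for endothelial and other cells. Transcripts per µm2 were 0.938 in SspA+HDM and 0.598 in mock blood endothelial cells, and 1.42 and 0.801 in the other cells.

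Of the 379 panel genes, 156 had at least 100 transcripts in the blood endothelial cells of a section. For 77 of these the level was under 0.25 of the level in another cell class, so their transcripts may belong to adjacent cells, and 79 genes were kept. Among the 79, 6 genes (7.59%) had ratios of 2 or more and 8 (10.1%) ratios of 0.5 or less. For all 14 the strips of the sections did not overlap. That is no separate check, since the 14 were chosen by ratios from the same strips. The share of all 79 genes with strips apart is not given here. Without the limit on adjacent cells 22 of the 156 genes (14.1%) were higher and 20 (12.8%) lower. Without SspA+HDM strip 2, 3 genes were higher and 6 lower. The median log2 ratio of the 79 genes was 0.22. Given as transcripts per cell, every log2 ratio shifts by 0.15, with 10 genes higher and 5 lower.

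The 5 genes of the rule are given as a description, since they chose the cells. Vwf was at 43857 and 44159 CPM in the SspA+HDM strips and 28511 and 28448 CPM in the mock strips, 1.55-fold higher. Plvap was at 40159 and 38669 CPM in SspA+HDM and 34811 and 32834 CPM in mock skin (1.17-fold). Tie1, Kdr and Sox17 had ratios of 1.33, 1.39 and 1.28. For each of the 5, both SspA+HDM strips lay above both mock strips. In the neighbourhoods Vwf had ratios of 1.31 and 1.56, Plvap of 1.08 and 1.3, and Tie1 of 1.13 and 1.53. Kdr had 0.996 and 1.24, and Sox17 had 0.858 (0.695 to 1.07) and 1.79 (1.09 to 3.15). The Sox17 interval near fat or muscle spans 1. With cells thinned to 40 transcripts, which left out 111 SspA+HDM and 33 mock cells, Vwf was found in 74.9% of SspA+HDM and 66.4% of mock cells (89.9% and 82.2% unthinned), Kdr in 37.5% and 34.3% (62.2% and 51.6% unthinned), and Sox17 in 20.4% and 19.6% (37.8% and 30.6% unthinned).

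**Figure D2:**
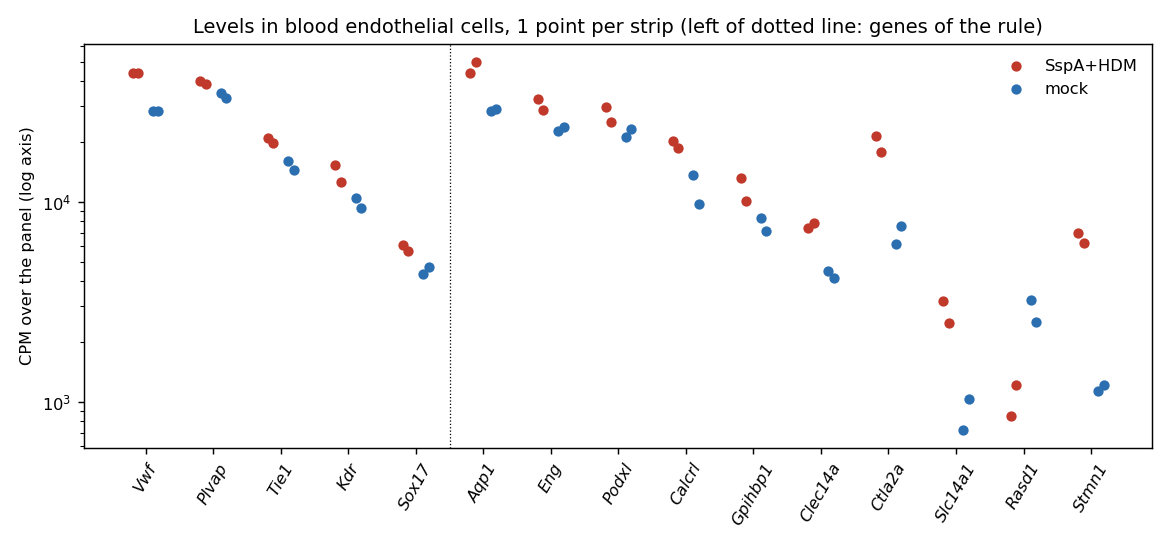
Level in blood endothelial cells (CPM over the panel, log axis) of the 5 genes of the rule (left of the dotted line) and 10 further genes, with 1 point per strip, SspA+HDM strips in red at the left and mock strips in blue at the right of each gene. The strips of the sections do not overlap for any of the 15 genes, and Rasd1 is the only one shown that is lower in SspA+HDM. This is a description of selected genes and no separate check, since strips of a section are not replicates. The share of all kept genes with strips apart is not given here.

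Of the 43 further blood endothelial genes listed, 8 were on the panel and kept: 6 were higher in SspA+HDM, 0 by at least 2-fold, and 1, Timp4, was at least 2-fold lower. Their median log2 ratio was 0.48, against 0.22 over the 79 genes, of which 46 were higher and 33 lower. Aqp1 was at 43968 and 49731 CPM in SspA+HDM and 28349.9 and 28935 CPM in mock skin, 1.65-fold higher (1.53 to 1.77), with 1.74-fold near fat or muscle and 2.69-fold away from both. Clec14a was at 7383 and 7858 CPM in SspA+HDM and 4523 and 4142 CPM in mock skin, 1.78-fold higher (1.48 to 2.15). Both therefore stood higher in each neighbourhood (Clec14a 1.44-fold and 2.73-fold). Gpihbp1 and Tmem100 were 1.48-fold higher each, Eng 1.32-fold and Podxl 1.22-fold. Near fat or muscle the ratios of these 4 were 1.14, 0.85 (0.623 to 1.18), 1.03 and 0.675 (0.61 to 0.748). Podxl was thus lower there in SspA+HDM, while the Tmem100 interval spans 1. Away from both the ratios of the 4 were 1.14 (0.856 to 1.55), 3.8 (1.47 to 14), 1.65 and 1.32. All were above 1, with an interval that spans 1 for Gpihbp1. Cav1, the core protein of caveolae, was at 46350.5 CPM in SspA+HDM and 51464 CPM in mock skin, a ratio of 0.901, and at 4.88 transcripts per cell in both.

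Calcrl, the receptor that binds adrenomedullin and calcitonin gene-related peptide, belonged to no list and was at 20227 and 18674 CPM in SspA+HDM and 13649.9 and 9807.5 CPM in mock skin. It was 1.69-fold higher (1.51 to 1.89), 1.46-fold near fat or muscle and 1.55-fold away from both, so it was higher in both neighbourhoods. Gng11, a G protein subunit gene, AU021092 and the collectin gene Colec11 had ratios of 1.39, 1.34 and 0.863. In the neighbourhoods these were 1.16 and 1.22 for Gng11, 1.05 and 3.49 for AU021092, and 1.39 and 0.458 for Colec11. The Colec11 ratios lay either side of 1, but both intervals span 1 (0.975 to 2.04 and 0.145 to 2.33). Away from both, AU021092 and Colec11 each rested on 3 mock transcripts.

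The lists by vessel type and state had few panel members. Of the arterial genes, Sox17 and Fbln5, an elastic fibre protein, were kept, with a median log2 ratio of 0.28, and Fbln5 had a ratio of 1.15 (0.999 to 1.32), with 1.43 and 1.59 in the neighbourhoods. Of the venous and leukocyte adhesion genes, Vwf, Plvap and the chemokine-scavenging receptor gene Ackr3 were kept, and Ackr3 had a ratio of 1.11 (0.753 to 1.7), with 1.28 near fat or muscle and 0.662 away from both. Of the capillary genes, Gpihbp1, Kdr and Aqp1 were higher and Cd36 and Aqp7, genes of fatty acid and glycerol transport, lower by 1.84-fold and 1.35-fold. Aqp7 had a ratio of 1.3 near fat or muscle, above 1. No gene of these 3 lists passed 2-fold. The interferon genes Psmb8, an immunoproteasome subunit, and Rsad2, an antiviral enzyme, were 1.36-fold and 1.36-fold higher over all cells. Psmb8 had ratios of 0.984 and 1.43 in the neighbourhoods. Rsad2 had 0.902 and 0.96 and thus did not stand higher within either. Of the platelet and coagulation genes only Vwf was kept.

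Angpt2, which loosens vessels through the receptor Tek, was at 3488 and 2804 CPM in SspA+HDM and 1858 and 2071 CPM in mock skin. Over all cells it was 1.56-fold higher (1.19 to 2.09). Near fat or muscle it had a ratio of 0.594 (0.426 to 0.838), and away from both of 4.51 (1.75 to 16.6). Its direction therefore turned with the neighbourhood, and the second ratio rested on 4 mock transcripts.

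Of the 6 higher genes, Ctla2a and Slc14a1 had the highest levels relative to other cells. Ctla2a was at 21250.4 and 17818 CPM in SspA+HDM and 6138 and 7554 CPM in mock skin, 2.78-fold higher (2.41 to 3.22). Within the neighbourhoods it was 1.42-fold (1.21 to 1.69) higher near fat or muscle and 3.42-fold (2.41 to 5.05) away from both. With cells thinned to 40 transcripts Ctla2a was present in 47.3% of SspA+HDM and 30.6% of mock cells (69.4% and 43.4% unthinned). Slc14a1 was at 3192 and 2467 CPM in SspA+HDM and 727 and 1036 CPM in mock skin, 3.07-fold higher (2.07 to 4.75) from 530 and 26 transcripts. That difference was not found within the neighbourhoods, where the ratios were 0.922 (0.462 to 2.0) and 1.25 (0.752 to 2.25), from 11 and 15 mock transcripts. The neighbourhoods rest on the 50 µm limit alone, and depth was not matched within them. In both sections the gene was high away from fat and muscle, at 5076 CPM in SspA+HDM and 4054 CPM in mock skin, and low near them, at 404 and 438 CPM.

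The other high ratios were smaller or rested on few transcripts. Bst1, an ADP-ribosyl cyclase, was 1.93-fold higher (1.46 to 2.62) and higher in both neighbourhoods (1.78 and 3.3-fold). Its second ratio rested on 4 mock transcripts (interval 1.28 to 12.2). Rgs5 was 1.86-fold and Gm13889 1.84-fold higher, both with mural cells as the class of highest level, and in the neighbourhoods the ratios were 1.59 and 1.67 for Rgs5 and 1.11 and 2.32 for Gm13889. The pericyte gene Higd1b (1.86-fold) and Gamt, an enzyme of creatine synthesis (1.77-fold), had 13 and 17 mock transcripts. In the neighbourhoods Higd1b had ratios of 1.51 (0.628 to 4.41) and 0.687 (0.324 to 1.74), and Gamt had 1.53 and 1.51. The intervals of both genes span 1 in each neighbourhood.

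Genes of cell division stood highest of all. Stmn1, a microtubule regulator abundant in dividing cells, was at 7014 and 6246 CPM in SspA+HDM and 1131 and 1218 CPM in mock skin, 5.57-fold higher (3.96 to 8.07). With cells thinned to 40 transcripts it was present in 20.6% of SspA+HDM and 4.43% of mock cells (34.7% and 8.88% unthinned). It was 3.23-fold higher (2.18 to 4.98) near fat or muscle and 5.06-fold (2.45 to 12.6) away from both, the latter from 7 mock transcripts. Cenpf, a protein of the kinetochore in dividing cells, gave 185 transcripts in SspA+HDM and 2 in mock blood endothelial cells, a ratio of 13.9 (3.81 to 116). Ube2c, the ubiquitin-conjugating enzyme that drives exit from mitosis, gave 144 and 3 transcripts, a ratio of 7.24 (2.43 to 35.5). Near fat or muscle the mock cells held 0 Cenpf transcripts, so the gene was at least 3.56-fold higher there with 3 counts over the group as the floor, and away from both it was 2.77-fold higher (0.752 to 23.1). For Ube2c the ratio was 4.14 (1.05 to 35.7) near fat or muscle and 4.31 (0.759 to 172) away from both, from 2 and 1 mock transcripts. All 3 measured genes of the division list thus passed 2-fold over all cells, with a median log2 ratio of 2.86. Over cells with no epithelial or skeletal muscle cell within 20 µm the log2 ratios were 1.04 for Cenpf, 0.98 for Ube2c and 3.15 for Stmn1, against 3.80, 2.86 and 2.48 over all cells. Over the nucleus alone they were 1.75, 0.99 and 2.66, so Ube2c fell short of 2-fold in both settings. Their levels in SspA+HDM blood endothelial cells were still below those of all other cells of that section, at 0.71 times for Cenpf, 0.747 times for Ube2c and 0.629 times for Stmn1.

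In the same cells the division genes met. Cenpf or Ube2c was present in 11.1% of SspA+HDM blood endothelial cells (201 of 1814) and 1.64% of mock ones (5 of 304). Both were present in 38 SspA+HDM cells, 2.09% (1.49 to 2.86), and in 0 of 304 mock cells, which allows a share of up to 0.987% by 3 counts of the total and 1.21% by the exact interval. Among SspA+HDM cells Ube2c was found in 28.4% of those with Cenpf and 3.99% of those without. The Stmn1 level was 32024 CPM in the 38 cells, against 4708 CPM in the 1613 cells with neither gene, and the genes of the rule made up 12.6% and 12.3% of transcripts. Epithelial markers, from the class with the most dividing cells, were 1.04% of transcripts in the 38 cells and 0.713% in the 1613. The median distance to an epithelial cell was 13.9 µm for the 38 cells and 22.8 µm for the 1613, and its part in these shares was not tested. The 38 cells held a median of 128.5 transcripts, against 90, and lay at a median depth of 139.8 µm, against 191 µm. Strip 1 held 15 of them and strip 2 23.

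The share with both genes was higher in SspA+HDM in other classes too. It was 9.7% in SspA+HDM and 4.19% in mock epithelial cells, 3.14% and 0.122% in fibroblasts, and 2.15% and 0.158% in mural cells. Lymphatic endothelial cells, the closest relatives, had 0.948% (0.259 to 2.41) in SspA+HDM and 0 of 366 in mock skin. Adipocytes and skeletal muscle cells, classes in which division is not expected, had 0.131% and 0.0906% in SspA+HDM. At least 1 of the genes was present in 6.55% of SspA+HDM and 1.44% of mock adipocytes, with Stmn1 at 2317 and 845 CPM. Higher levels of division genes in SspA+HDM were thus also seen in a class in which division is not expected, below those of the blood endothelial cells, and the part of adjacent cells was not tested. Adipocyte and skeletal muscle outlines in SspA+HDM held medians of 135 and 305 transcripts, against 92 in the blood endothelial cells.

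**Figure D3:**
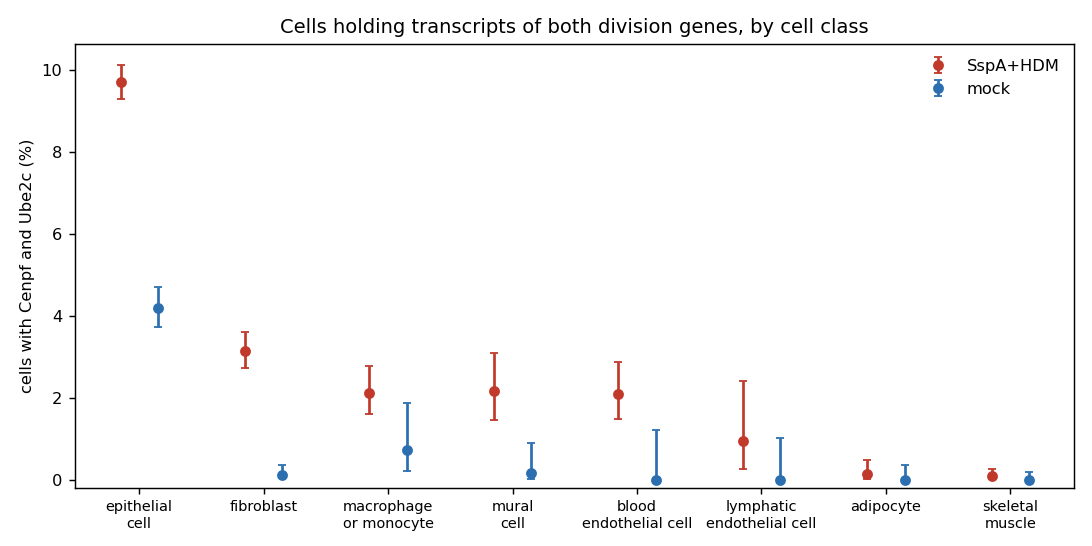
Share of cells (%) holding at least 1 transcript of both Cenpf and Ube2c in 8 cell classes, SspA+HDM in red at the left and mock in blue at the right of each class, with exact 95% binomial intervals that cover counting error only. Blood endothelial cells stand at 2.09% in SspA+HDM and 0 of 304 cells in mock skin, below epithelial cells (9.70% and 4.19%) and above adipocytes and skeletal muscle cells.

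The start regions of Cenpf and Ube2c are shown because both genes were higher in SspA+HDM and met in the same blood endothelial cells, and because genes of late cell division often carry CCAAT boxes and a CHR element there. The sequences run from 250 bases before the gene start up to it, from RefSeq on GRCm38.p6, 5′ to 3′ on the gene's strand (chr1:189688087-189688336, minus strand, and chr2:164769679-164769928, plus strand). Capitals mark matches to CCAAT and to TTTGAA or TTCGAA, the letters searched for the CHR element, on both strands, so ATTGG and TTCAAA are matches on the other strand; neighbouring matches may overlap.
Cenpf: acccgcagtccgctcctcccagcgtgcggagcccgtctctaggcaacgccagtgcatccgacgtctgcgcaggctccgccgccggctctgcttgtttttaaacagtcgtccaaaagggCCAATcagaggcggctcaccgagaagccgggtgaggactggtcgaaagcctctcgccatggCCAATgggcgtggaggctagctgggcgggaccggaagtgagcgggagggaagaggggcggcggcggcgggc
Ube2c: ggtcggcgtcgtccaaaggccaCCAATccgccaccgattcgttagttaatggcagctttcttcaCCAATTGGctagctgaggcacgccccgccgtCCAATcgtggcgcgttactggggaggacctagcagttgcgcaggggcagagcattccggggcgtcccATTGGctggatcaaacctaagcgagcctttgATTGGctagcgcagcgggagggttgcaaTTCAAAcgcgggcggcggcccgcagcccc
Cenpf held 2 matches to CCAAT and Ube2c 6. Over the full windows of 300 bases, which run 50 bases past the start, each gene also held 1 match to the CHR letters, in Cenpf past the start. Of 32851 such windows of mouse genes, 37.4% held a CCAAT, 11.7% at least 2 and 0.271% at least 5, and 19.2% held the CHR letters. At least 2 CCAAT with the CHR letters were found in 2.31% of windows. A match is a description of letters and shows no binding.

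Among the genes that were lower in SspA+HDM were several of fat. Of the 8 at least 2-fold lower, 5 had adipocytes as the mock class of highest level. The same share over all kept genes is not given here, so the 5 are a description only. Near fat or muscle 0 of 69 genes compared were 2-fold lower, against 10 of 72 away from both. Car3, an abundant carbonic anhydrase of adipocytes, was at 28128 and 33443 CPM in SspA+HDM and 60980.5 and 84186 CPM in mock blood endothelial cells, 2.38-fold lower (2.26 to 2.5). Car3 and Retn also helped to define the adipocyte class, which held Car3 at 193776 CPM in SspA+HDM and 212990 CPM in mock skin. The adipokine gene Retn was 2.98-fold lower, Timp4, an inhibitor of metalloproteinases, 2.94-fold, Selenbp1 2.18-fold and the complement gene C3 2.17-fold. The ratios near fat or muscle were 0.736 for Car3, 0.587 for Retn, 0.571 for Timp4, 0.641 for Selenbp1 and 0.789 for C3. Away from both the same genes had ratios of 0.281, 0.458, 0.199, 0.466 and 0.195. Car3, Timp4 and C3 were thus lower in SspA+HDM in both neighbourhoods. For Retn and Selenbp1 the second ratio rested on 1 and 5 mock transcripts. Their intervals there span 1 (0.0678 to 19.6 and 0.189 to 1.49). The extracellular superoxide dismutase gene Sod3 and Fxyd1, which acts on the sodium-potassium ATPase, were 2.34-fold and 2.15-fold lower, with ratios of 0.607 and 0.229 for Sod3 and 0.52 and 0.594 for Fxyd1 in the neighbourhoods. How much of these levels is RNA of adjacent adipocytes was not tested. Below the 2-fold size, Htra3, Cd36, Mettl7a2 and Cavin2 were 1.88, 1.84, 1.74 and 1.71-fold lower; of these Cd36 and Cavin2, a coat protein of caveolae, had ratios of 0.888 and 0.848 near fat or muscle and 1.22 and 0.519 away from both.

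Rasd1 differed from the other lower genes in its level outside the vessels. It encodes a Ras-like protein first found as induced by the glucocorticoid dexamethasone, and its level in blood endothelial cells was above that of every comparison class in mock skin, 21.2-fold that of all other cells. It was at 851 and 1220.1 CPM in the SspA+HDM strips and 3231 and 2498 CPM in the mock strips, which did not overlap, 2.65-fold lower (2.02 to 3.44) from 203 and 81 transcripts. Near fat or muscle the ratio was 0.589 (0.422 to 0.831) and away from both 0.117 (0.0758 to 0.187), so it was lower in both neighbourhoods. Of its transcripts 62.1% in SspA+HDM and 70.4% in mock cells lay over the nucleus of the cell, against 36.3% and 31.2% of all transcripts. For Car3 these shares were 13.5% and 11.6%.

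**Figure D4:**
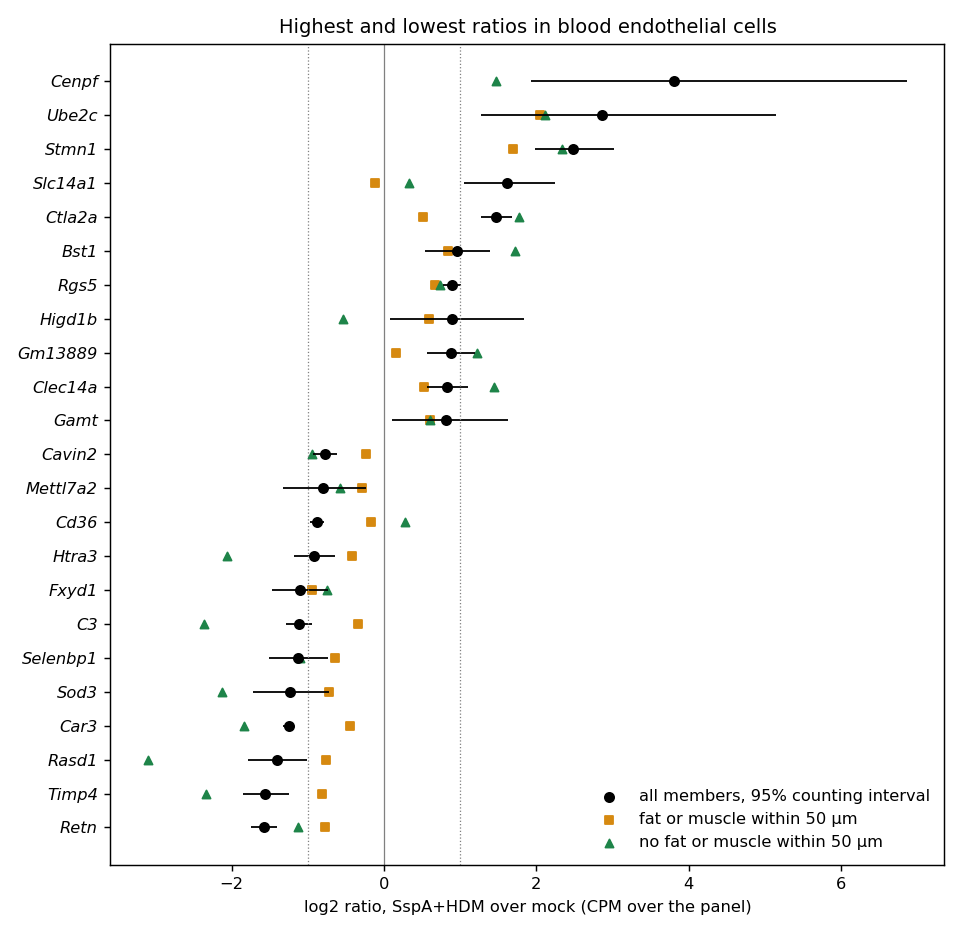
Log2 ratio of level, SspA+HDM over mock, for genes among the 12 highest and 12 lowest of the 79: over all blood endothelial cells (black, with 95% counting interval), for cells near an adipocyte or skeletal muscle cell (orange squares) and for cells away from both (green triangles). Dotted lines mark 2-fold; the points for Slc14a1, Car3, C3 and Cd36 move towards 0 near fat or muscle while Stmn1 stays above 2-fold in both neighbourhoods, the Ube2c points rest on 2 and 1 mock transcripts, and points are left out where the mock cells held 0 transcripts.

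Depth below the surface, which the rule did not use, ordered the endothelial genes within each section. In SspA+HDM skin cells above 100 µm (482 cells) were compared with cells at 200 µm and deeper (823 cells), and in mock skin with cells at 100 µm and deeper (172 cells), so the 2 gradients cover different depths and are given side by side. Slc14a1 was 6.07-fold higher (4.77 to 7.78) in shallow than in deep SspA+HDM cells. In mock skin the shallow cells held 24 of its transcripts and the deep cells 2, a ratio of 24 (5.95 to 209). Kdr was 1.94-fold higher in shallow SspA+HDM cells and 1.98-fold in shallow mock cells, Rsad2 2.26 and 2.99-fold, Podxl 2.78 and 1.49-fold, Ctla2a 3.32 and 1.67-fold, and Gpihbp1 2.09 and 1.42-fold. These 6 genes were thus higher towards the surface in both sections. Kdr is a gene of the rule, so its gradient is a description.

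Other genes differed in this respect between the sections, though the difference between gradients was not tested. Angpt2 was 5.27-fold higher (4.28 to 6.51) in shallow SspA+HDM cells, with levels of 7014, 2708, 1709 and 791 CPM in steps of 100 µm from the surface down. In shallow and deep mock cells it was at 2081 and 1928 CPM. Sox17, a gene of the rule and so given as a description, was 1.94-fold higher in shallow SspA+HDM cells. In mock skin it had a ratio of 0.868 (0.583 to 1.27). Rasd1 ran in opposite directions, 2.19-fold lower (1.39 to 3.56) in shallow SspA+HDM cells and 3.99-fold higher (2.47 to 6.59) in shallow mock cells. Shallow cells held it at 504 CPM in SspA+HDM and 5619 CPM in mock skin, and deep cells at 1101 and 1407 CPM.

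Cd36, which takes up fatty acids, and a few other genes favoured deep cells. Cd36 was 25.3-fold lower in shallow than in deep SspA+HDM cells and 2.2-fold lower in mock skin, and Timp4 12.5 and 2.06-fold. Cavin2 and Fbln5 also favoured deep cells, with ratios of 0.263 and 0.412 in SspA+HDM and 0.507 and 0.612 in mock skin. The adipocyte gene Car3, at 630.0 CPM in shallow and 56872 CPM in deep SspA+HDM cells, moved with them, and its part in the levels of the other deep genes was not tested. Colec11, which is not an adipocyte gene here, was 8.14-fold lower (4.32 to 17.3) in shallow SspA+HDM cells and had a ratio of 0.665 (0.29 to 1.4) in mock skin. Shallow over deep cells, Aqp1 had ratios of 0.883 (0.838 to 0.929) in SspA+HDM and 0.766 (0.655 to 0.893) in mock skin, so it was somewhat lower in shallow cells of both. Cav1 had ratios of 1.01 (0.962 to 1.06) and 0.901 (0.806 to 1.01), with intervals that span 1.

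**Figure D5:**
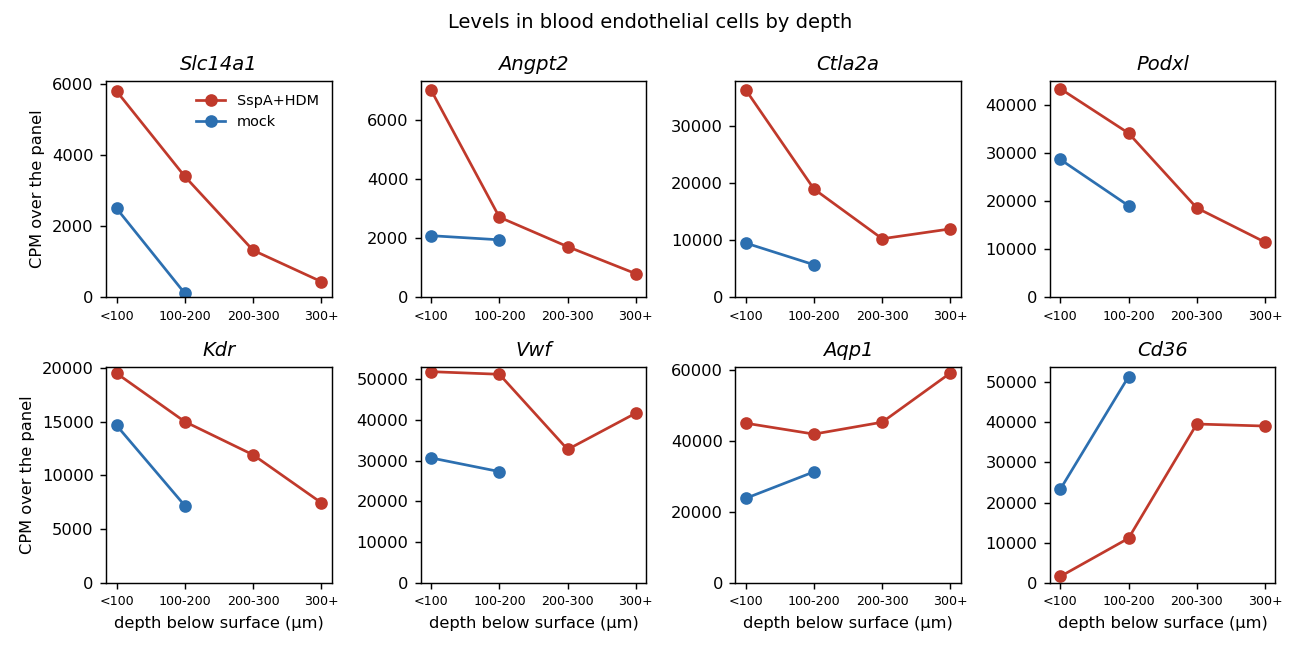
Level in blood endothelial cells (CPM over the panel) of 8 genes by depth below the skin surface in steps of 100 µm, SspA+HDM in red and mock in blue, for steps with at least 50 cells. Slc14a1, Ctla2a, Podxl and Kdr stand highest in the step nearest the surface in both sections, Angpt2 does so in SspA+HDM, and Cd36 is high in deep cells. Kdr and Vwf are genes of the rule.

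Sox17 is a gene of the rule, so a split by it is a description. Cells with at least 2 Sox17 transcripts, 271 in SspA+HDM and 27 in mock skin, were set against cells with 0, which were 1129 and 211. In both sections the Sox17-rich cells were more often within 20 µm of a mural cell, 69.4% against 51.6% in SspA+HDM and 59.3% against 31.3% in mock skin. Their median depth was 144 µm against 201 µm in SspA+HDM and 122 µm against 103 µm in mock skin, so they lay shallower in SspA+HDM and deeper in mock skin, and the part of depth in the ratios was not tested. Podxl was 2.16-fold higher in the Sox17-rich cells of SspA+HDM and 1.78-fold in those of mock skin, and Clec14a 1.64 and 1.91-fold. Gpihbp1 differed, at 1.76-fold higher in SspA+HDM and a ratio of 0.324 (0.145 to 0.63) in mock skin. In mock skin the Sox17-rich cells had Fbln5 and the smooth muscle genes Myh11 and Tagln at 3.54, 2.74 and 2.62-fold the level of the other cells, while in SspA+HDM these ratios were 1.04, 1.13 and 0.819. Aqp1 was lower in Sox17-rich cells, with ratios of 0.725 in SspA+HDM and 0.228 in mock skin. The Sox17-rich cells held more transcripts in all, a median of 109 against 86 in SspA+HDM and 91 against 75 in mock skin, and 27 mock cells limit what can be read there.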

How the data were processed

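The deposited files hold, per the file headers, 1 line per decoded transcript with its gene, position, quality score, cell and a nucleus flag, and the corner positions of cell outlines. Software for decoding and segmentation is not given in the sources used here. Positions were taken as µm from the size of the outlines. Counts were made by counting transcripts with a deposited quality score of at least 20 per cell and panel gene, in Python 3.11.15 with numpy 2.4.6, scipy 1.17.1 and pandas 2.3.3. No doublet caller was run. The labels give 1 sample per treatment, so values are sums over cells with exact Clopper-Pearson intervals for shares and exact conditional binomial intervals for ratios.

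A gene was compared with at least 100 transcripts in a section and kept where its level reached 0.25 of the highest comparison class. A cell went to the class whose markers were most enriched over their mean share in both sections, with at least 4 transcripts and 3-fold, a rule set once the panel was known, and a class needed 50 cells to be used. Named genes are the 12 highest and 12 lowest ratios among kept genes, the 12 genes highest over other cells in each section with at least 50 transcripts (a minimum added to the rule later), the genes of the rule, and listed genes. Of the 12 highest, 1 is counted but not reported here. The surface was the 2nd percentile across each strip in steps of 100 µm, and links and neighbours were taken within 20 µm. The members and lists were chosen with earlier results of these data known. Ratio intervals were tested on simulated data. Alternatives changed 1 choice at a time, except that the looser and stricter rules moved the marker count and percentage together. Promoter windows are from RefSeq on GRCm38.p6.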

Additional observations from a re-analysis of the deposited data

How the results depend on the processing

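No paired analysis was possible because each treatment has 1 sample. The higher share and the higher number per mm of strip in SspA+HDM kept their direction under every alternative run. With a quality score of at least 30 they were 2.55 and 6.76-fold, with the looser rule 1.7 and 4.45, with the stricter rule 3.48 and 9.14, and over cells with no epithelial or skeletal muscle cell within 20 µm 2.9 and 7.62. Leaving out strip 1 or strip 2 of SspA+HDM gave 6.22 and 4.6-fold per mm. The 5th percentile as surface put the SspA+HDM cells at 169.6 µm. Links within 15 and 30 µm put 29.3% and 49.9% of them in groups of at least 5.

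The counts of 6 higher and 8 lower genes depended more on the settings. Transcripts per cell gave 10 higher and 5 lower, no limit on adjacent cells 22 and 20, that limit at 0.5 gave 2 and 2, and a minimum of 300 transcripts gave 3 and 4. Transcripts over the nucleus gave 3 higher, and cells with no epithelial or skeletal muscle cell within 20 µm 10 higher. The stricter rule gave 5 lower. Leaving out 1 strip in turn gave 3 to 8 higher and 6 to 8 lower, with 3 higher without SspA+HDM strip 2. The cause was not tested. Chosen after seeing the data, cells away from fat and muscle gave 13 higher, cells near them 0 lower, and cells under 5% mural transcripts 5 lower. Near fat or muscle the log2 ratio of Slc14a1 reversed to -0.12. Thinned to 20 transcripts, the share of cells with Plvap differed by -0.19 percentage points, also reversed. Away from fat and muscle Higd1b had a log2 ratio of -0.54 and Cd36 of 0.28, against 0.89 and -0.88 over all cells. The shares of cells with Podxl, Cav1 and Ackr3, higher in SspA+HDM unthinned, were lower when thinned to 40 transcripts. Cenpf and Stmn1 were at least 2-fold higher in 17 of 17 settings and Ube2c in 15. With no epithelial or skeletal muscle cell within 20 µm, Cenpf had a log2 ratio of 1.04 and Ube2c of 0.98, and over the nucleus 1.75 and 0.99. The 304 mock cells, and 54 of them away from fat and muscle, limit every ratio.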

Other observations

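Chosen after its values were seen, a split by Gpihbp1, the capillary carrier of lipoprotein lipase, set 480 SspA+HDM and 54 mock blood endothelial cells with at least 2 of its transcripts against 1042 and 191 cells with 0. Several genes were higher in the Gpihbp1-rich cells of both sections. Rsad2 was 2.72-fold higher in SspA+HDM and 3.36-fold in mock skin, and Kdr 2.07 and 2.42-fold. Vwf, which favours larger vessels, was lower in them, with ratios of 0.71 and 0.367, as were Aqp1, with 0.75 and 0.451, and the smooth muscle gene Myh11, with 0.364 and 0.30. Plvap had ratios of 1.04 and 0.979. Kdr, Vwf and Plvap are genes of the rule, which sets a minimum on a sum that includes them. Their ratios are therefore a description. The Gpihbp1-rich cells held more transcripts, a median of 112 against 84.5 in SspA+HDM and 94.5 against 75 in mock skin. The part of depth below the surface in these ratios was not tested.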
